A study of Homo sapiens with 15 samples.

Results

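The axon guidance ligands and receptors comprise 62 of the 28207 gene symbols in the table of raw counts. They were chosen by gene symbol alone: EPHA and EPHB receptors, EFNA and EFNB ephrins, SEMA semaphorins of classes 3 to 7, PLXN plexins, ROBO receptors, SLIT ligands and the netrins NTN1, NTN3, NTN4 and NTN5. The receptors number 27, with 9 EPHA, 5 EPHB, 9 PLXN and 4 ROBO genes. The ligands number 35, with 5 EFNA, 3 EFNB, 20 SEMA, 3 SLIT and 4 NTN genes.

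These proteins steer growing axons and migrating cells by attraction or repulsion at the cell surface. Ephrins are bound to the membrane of the neighbouring cell, EFNA by a lipid anchor and EFNB by a membrane-spanning segment, and they bind Eph receptor tyrosine kinases on contact. Semaphorins are secreted or membrane-bound and signal mainly through plexins, the secreted class 3 members mostly together with neuropilins. SLIT proteins are secreted ligands of ROBO receptors, and netrin 1 is a secreted ligand of DCC, neogenin (NEO1) and the UNC5 receptors. Many of these genes are also used outside the nervous system, in vessels, epithelia and tumours, and embryonal carcinoma cells can form neurons.

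NTERA2, a human line established from an embryonal carcinoma, is related to pluripotent cells. All 15 libraries came from this line, grown in DMEM with 10% FBS and treated with siRNA 2 times within 7 days. The knockdown groups received siRNA against IGF2BP1 (siIGF2BP1), an RNA-binding protein of fetal tissue and tumours, SRF (siSRF), a transcription factor that binds CArG boxes, FOXM1 (siFOXM1), a cell cycle transcription factor, or IQGAP3 (siIQGAP3), a scaffold protein. The fifth group received a control siRNA (siControl), and each group has 3 libraries. The sources used here give no siRNA sequences, number per target or dose. Nothing says that the 3 libraries of a group are separate cultures, so each p-value measures the spread between these libraries only, which may be technical.

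Library totals were 35275570 to 44996064 counts. The columns of the table name the group and no replicate, so the libraries of a group are numbered 1 to 3 by column only to name them. The third library stood apart in 4 of the groups. Between libraries 1 and 2 the chi-square of the counts was 2.28 to 16.9 per gene in siIGF2BP1, siSRF, siFOXM1 and siControl, whereas between the third library and each of the others it was 124 to 558. The siIQGAP3 libraries lay close together, at 1.82 to 4.4. For most of the members described here the third column labelled siControl was nearer to the siIQGAP3 libraries than to its own group. The labels of the third columns could not be checked from the files, so every comparison takes them as given. The siRNA targets were lower in their own knockdown by edgeR's quasi-likelihood F test, with log2 fold changes of -3.73 to -1.06 and adjusted p-values of 3.09e-07 to 0.0138. The deposited raw and normalised tables disagree on 9 genes, among them the 4 targets, and on none of the 62 genes described here. POU5F1 and NANOG, which are among the pluripotency markers used below, are also among the 9, and their levels here come from the raw counts.

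The markers of the label were present: all 10 pluripotency genes had counts in every library. Their summed level was 403 to 511 CPM in siIGF2BP1, 428 to 511 in siSRF, 281 to 1284 in siFOXM1, 4798 to 4933 in siIQGAP3 and 1753 to 4435 in siControl (CPM, counts relative to the library total scaled by TMM, the trimmed mean of M values). Blood markers summed to at most 1.30 CPM in any library, with HBG1 at 0 counts in all 15, while the 8 endothelial markers summed to 11.6 to 14.3 CPM in siIGF2BP1, 13.3 to 13.6 in siSRF, 7.85 to 70.1 in siFOXM1, 81.2 to 86.4 in siIQGAP3 and 24.9 to 98.5 in siControl. TEK was the most abundant of them, at up to 63.2 CPM, and PECAM1 reached at most 0.768 CPM. Of the fibroblast and mesenchyme markers, DCN was at 0.548, 0.202 and 0.495 CPM in the siIQGAP3 libraries, against 237, 275 and 0 CPM in the siControl libraries, and at 190.1 to 322 CPM in every library of the other knockdowns.

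Per kilobase of exon, the most abundant member in siControl was EFNA2, at 41.7 ± 14.2 CPM per kb (SD, n = 3), with PLXNB2 close to it at 41.2 ± 9.46. These levels do not differ beyond their spread. PLXNB2 is a plexin that binds class 4 semaphorins. Neighbours in the order then followed within their spread: EFNB1 (29.8 ± 1.76), SEMA6B (29.4 ± 6.54), EFNA4 (26.9 ± 6.04), PLXND1 (25.3 ± 9.58) and EPHB4 (24.5 ± 3.71 CPM per kb). ROBO1 stood at 15 ± 3.6 CPM per kb and was the most abundant ROBO receptor, SLIT3 (7.48 ± 5.12) and SLIT2 (7.11 ± 5.77) overlapped, and among the netrins NTN1 (4.27 ± 2.19) and NTN3 (2.78 ± 2.01 CPM per kb) overlapped, NTN3 being the higher in siControl libraries 1 and 2. At the other end of the siControl order were NTN5 (0.105 ± 0.0895), SLIT1 (0.287 ± 0.0543), EPHA10 (0.302 ± 0.323) and ROBO4 (0.31 ± 0.47 CPM per kb). In siIQGAP3 the order was headed by EFNB1 at 48.8 ± 0.921, EPHA2 at 39.1 ± 0.743 and SEMA6A at 31.9 ± 0.162 CPM per kb. Exon lengths are from GENCODE 29, which may differ from the annotation used for counting. All 62 genes passed the filter on low counts and were tested among 18760 genes.

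**Figure D1:**
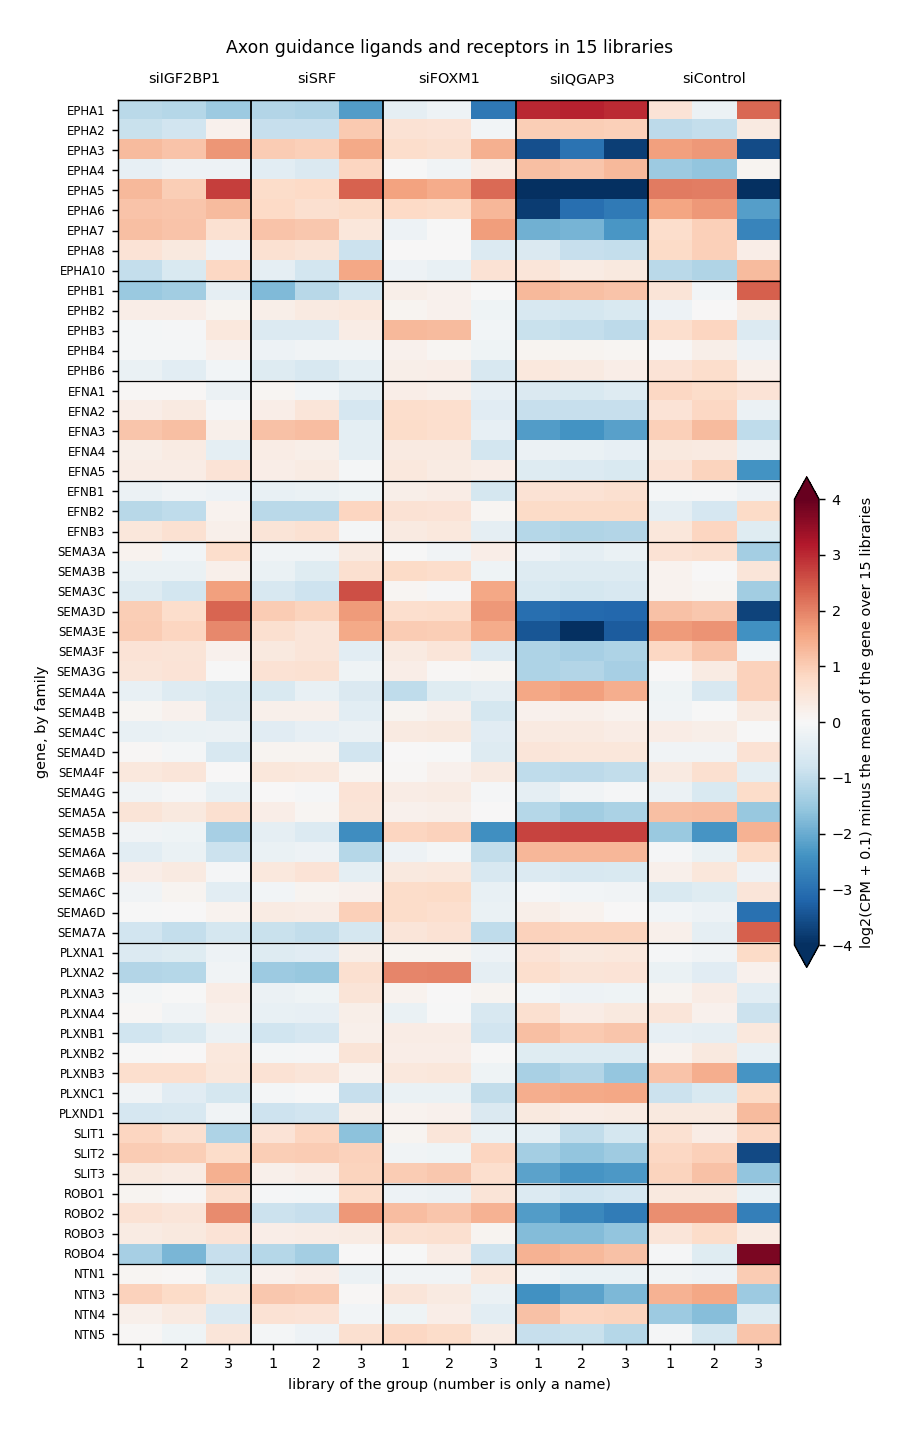
Each row is 1 of the 62 genes and each column 1 of the 15 libraries, grouped by siRNA. Colour gives log2(CPM + 0.1) minus the mean of that gene over the 15 libraries, from -4 (blue) to 4 (red). The 3 siIQGAP3 libraries look alike, and the third siControl library has the colours of siIQGAP3 rather than of the other siControl libraries in rows such as EPHA3, EPHA5, SEMA3D and ROBO2.

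In siIQGAP3 more members were lower than higher where they differed from siControl, as was so among all genes. By family only the plexins and B-type ephrins had no excess of lower calls. Some families rest on few calls, such as SLIT with 1 and EPHB with 2. Members whose groups did not overlap were 3 higher and 2 lower among the 9 EPHA genes and 5 higher and 6 lower among the 20 semaphorins. Among all genes tested, 25.2% did not overlap and were higher and 23.1% lower. Of the 62 members, 32 differed between siIQGAP3 and siControl, 7 of them higher and 25 lower (edgeR quasi-likelihood F test, adjusted p under 0.05). Among all 18760 genes tested 32.5% were called, 10.8% higher and 21.7% lower. The median log2 fold change of the members was -0.59, against -0.06 over all genes, and the median of its absolute value was 1.22, against 0.61. Receptors had 3 higher and 12 lower calls of 27, and ligands 4 higher and 13 lower of 35. Since bulk RNA was measured, fewer cells of a kind and less RNA per cell cannot be told apart.

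The A-type Eph receptors split by member. EPHA3, EPHA5, EPHA6, EPHA7 and EPHA8 fell and EPHA4 rose, while EPHA1, EPHA2 and EPHA10 did not pass the test. EPHA5, a receptor known from axon mapping in the brain, had 0.0548, 0.202 and 0.165 CPM in the siIQGAP3 libraries, against 24.8, 24.2 and 0.192 in the siControl libraries, log2 fold change -6.84 ± 1.39 SE, adjusted p = 0.00343. The siIQGAP3 libraries held 2, 7 and 6 counts and siControl library 3 held 9, and in CPM the groups overlap. EPHA3, a receptor of A-type ephrins, had 0.575, 0.895 and 0.468 CPM in the siIQGAP3 libraries, against 24.1, 25.6 and 0.555 in the siControl libraries, log2 fold change -4.69 ± 0.95 SE, adjusted p = 0.00347. Here too the third siControl library lay among the siIQGAP3 libraries. EPHA6 was at 0.164, 0.346 and 0.413 CPM in the siIQGAP3 libraries, against 10.8, 12 and 0.683 in the siControl libraries (log2 fold change -4.66 ± 0.80 SE, adjusted p = 0.00145), and its groups did not overlap. EPHA7 had 1.26, 1.33 and 0.936 CPM in the siIQGAP3 libraries, against 8.33, 9.83 and 0.726 in the siControl libraries (log2 fold change -2.42 ± 0.75 SE, adjusted p = 0.0263) and EPHA8 5.48, 4.33 and 4.27 CPM in the siIQGAP3 libraries, against 14.1, 16 and 10.01 in the siControl libraries (log2 fold change -1.51 ± 0.36 SE, adjusted p = 0.00838).

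EPHA4, an Eph receptor that binds ephrins of both classes, went the other way. It had 24, 22.4 and 25.4 CPM in the siIQGAP3 libraries, against 3.67, 3.39 and 11.1 in the siControl libraries, log2 fold change 1.98 ± 0.46 SE, adjusted p = 0.00691, with every siIQGAP3 library above every siControl library. EPHA1 had 96.6, 102 and 95.8 CPM in the siIQGAP3 libraries, against 17.5, 10.02 and 58.8 in the siControl libraries, and EPHA2, a receptor of EFNA1 in epithelia and tumours, had 165, 164 and 159 CPM in the siIQGAP3 libraries, against 40.4, 42.6 and 107 in the siControl libraries. Neither passed the test, with log2 fold changes of 1.77 ± 0.66 (SE, adjusted p = 0.0558) and 1.36 ± 0.53 (SE, adjusted p = 0.0671), although in both genes the siIQGAP3 libraries lay above all siControl libraries. Among the B-type receptors EPHB3 (log2 fold change -1.41 ± 0.41 SE, adjusted p = 0.0197) and EPHB2 (log2 fold change -0.72 ± 0.14 SE, adjusted p = 0.00327) fell. EPHB4, the receptor of EFNB2 in veins, was at 164, 163 and 162 CPM in the siIQGAP3 libraries, against 159, 181 and 133 in the siControl libraries, with a 95% interval of its log2 fold change of -0.24 to 0.33. EFNB1, EPHB2, PLXNB2 and ROBO1 lie outside the limit of 25 members per comparison set for naming, and they, EPHB4 and EPHA2 were named after their values were seen.

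The promoter of EPHA3 is shown as that of a receptor that fell by more than 4 log2 units. It is the RefSeq window on GRCh38.p14 (chr3:89107371-89107670, plus strand), from 250 bases before to 50 after the annotated start, written 5′ to 3′ with CG pairs in capitals.
EPHA3: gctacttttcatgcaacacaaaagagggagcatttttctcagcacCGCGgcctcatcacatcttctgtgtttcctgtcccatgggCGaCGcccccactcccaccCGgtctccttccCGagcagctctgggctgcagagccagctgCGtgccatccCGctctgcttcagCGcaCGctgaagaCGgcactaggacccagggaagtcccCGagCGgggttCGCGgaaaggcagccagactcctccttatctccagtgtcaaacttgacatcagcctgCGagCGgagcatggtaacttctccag
The window holds 17 CG pairs.

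Plexins, the semaphorin receptors, moved in both directions. PLXNB1, a receptor of SEMA4D, had 147, 134 and 139 CPM in the siIQGAP3 libraries, against 50.9, 50.05 and 86.8 in the siControl libraries, log2 fold change 1.16 ± 0.33 SE, adjusted p = 0.0185. PLXNC1, a receptor of SEMA7A, had 15.2, 15.6 and 16.2 CPM in the siIQGAP3 libraries, against 2.93, 3.5 and 9.3 in the siControl libraries (log2 fold change 1.57 ± 0.42 SE, adjusted p = 0.0131). In both genes each siIQGAP3 library was above each siControl library. PLXNB3, a receptor of SEMA5A, fell, with 4.03, 4.45 and 3.39 CPM in the siIQGAP3 libraries, against 22.4, 27.9 and 1.86 in the siControl libraries (log2 fold change -2.13 ± 0.64 SE, adjusted p = 0.0225), and the third siControl library lay below all 3 siIQGAP3 libraries. PLXNB2 had 198, 197 and 193 CPM in the siIQGAP3 libraries, against 309.9, 362 and 226 in the siControl libraries (log2 fold change -0.61 ± 0.21 SE, adjusted p = 0.0402). The remaining 5 plexins did not pass, among them PLXND1, a receptor of SEMA3E in vessels, at 189.8, 180.4 and 182 CPM in the siIQGAP3 libraries, against 194, 191 and 354 in the siControl libraries (log2 fold change -0.42 ± 0.32 SE, adjusted p = 0.336).

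All ROBO receptors except ROBO4 were called lower. With each library left out in turn, the call of ROBO1 held in 1 of 6 fits and that of ROBO2 in 5. ROBO3, a receptor that governs midline crossing, had 10.8, 10.9 and 12.3 CPM in the siIQGAP3 libraries, against 50.8, 61.2 and 45.8 in the siControl libraries, log2 fold change -2.21 ± 0.16 SE, adjusted p = 1.18e-05, the smallest adjusted p among the members. Its siControl libraries lay together, the third included, and the lowest was several times above the highest siIQGAP3 library. ROBO2, a SLIT receptor, had 2.96, 2.34 and 1.98 CPM in the siIQGAP3 libraries, against 51.9, 52.3 and 2.09 in the siControl libraries (log2 fold change -3.87 ± 1.01 SE, adjusted p = 0.0124), and ROBO1, another SLIT receptor, 96.9, 82.7 and 89.6 CPM in the siIQGAP3 libraries, against 186, 186 and 118 in the siControl libraries (log2 fold change -0.86 ± 0.28 SE, adjusted p = 0.0305). For ROBO2 the third siControl library lay among the siIQGAP3 libraries, and for ROBO1 it was the nearest to them. ROBO4, the ROBO of endothelium, had 1.07, 0.982 and 0.908 CPM in the siIQGAP3 libraries, against 0.331, 0.217 and 6.0 in the siControl libraries (log2 fold change -1.15 ± 0.99 SE, adjusted p = 0.387), so its siControl mean rests on the third library.

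Among the ephrins, EFNA1, EFNA2, EFNA3 and EFNB3 fell and EFNB1 rose. EFNA1, a ligand of EPHA2, had 15, 14.7 and 15.9 CPM in the siIQGAP3 libraries, against 39.97, 37.8 and 33 in the siControl libraries, log2 fold change -1.28 ± 0.18 SE, adjusted p = 0.000599. All siControl libraries were above all siIQGAP3 libraries. EFNA3 had 5.07, 4.53 and 5.37 CPM in the siIQGAP3 libraries, against 47, 58.2 and 12 in the siControl libraries (log2 fold change -2.97 ± 0.57 SE, adjusted p = 0.00269), EFNA2 15.4, 15.4 and 15.4 CPM in the siIQGAP3 libraries, against 42.4, 51.4 and 24.9 in the siControl libraries (log2 fold change -1.36 ± 0.36 SE, adjusted p = 0.0124) and EFNB3, an ephrin of the midline, 16.1, 15.6 and 15.8 CPM in the siIQGAP3 libraries, against 48.8, 65.3 and 25.4 in the siControl libraries (log2 fold change -1.55 ± 0.31 SE, adjusted p = 0.00324). None of these groups overlap, and in each of the 3 genes the third siControl library was the lowest of its group. EFNB1, a B-type ephrin of many tissues, had 161, 159 and 165 CPM in the siIQGAP3 libraries, against 102, 103 and 92.2 in the siControl libraries (log2 fold change 0.71 ± 0.20 SE, adjusted p = 0.0182). EFNA4, EFNA5 and EFNB2 did not pass.

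Of the 20 semaphorins, 6 fell and 2 rose, where 21.7% of all genes were called lower and 10.8% higher. The falls included 4 of the 7 secreted class 3 semaphorins. SEMA3E, a ligand of PLXND1, had 1.78, 0.953 and 1.93 CPM in the siIQGAP3 libraries, against 66.1, 70.9 and 3.69 in the siControl libraries, log2 fold change -4.91 ± 0.85 SE, adjusted p = 0.00153. SEMA3D had 1.75, 1.65 and 1.6 CPM in the siIQGAP3 libraries, against 33.7, 31.3 and 1.05 in the siControl libraries (log2 fold change -3.72 ± 0.91 SE, adjusted p = 0.00887). The third siControl library was the nearest to siIQGAP3 in SEMA3E and below it in SEMA3D. SEMA3F, a ligand of neuropilin 2, had 28.2, 26.4 and 28 CPM in the siIQGAP3 libraries, against 119, 145 and 61.8 in the siControl libraries (log2 fold change -1.98 ± 0.34 SE, adjusted p = 0.00147), and SEMA3G 2.71, 2.86 and 2.53 CPM in the siIQGAP3 libraries, against 6.67, 8.28 and 12.6 in the siControl libraries (log2 fold change -1.76 ± 0.29 SE, adjusted p = 0.00115). In both genes every siControl library, the third included, lay above every siIQGAP3 library. SEMA3A, SEMA3B and SEMA3C did not pass.

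Membrane-bound semaphorins included SEMA5A, with 14.9, 12.4 and 13.7 CPM in the siIQGAP3 libraries, against 76.1, 77.9 and 11.5 in the siControl libraries (log2 fold change -2.01 ± 0.48 SE, adjusted p = 0.00811), and SEMA4F, with 9.51, 9.44 and 9.74 CPM in the siIQGAP3 libraries, against 24.8, 30.2 and 14.9 in the siControl libraries (log2 fold change -1.28 ± 0.23 SE, adjusted p = 0.00196), both lower. SEMA6A, a ligand of class A plexins, rose, with 348, 351 and 351 CPM in the siIQGAP3 libraries, against 135, 115 and 229 in the siControl libraries, log2 fold change 1.13 ± 0.31 SE, adjusted p = 0.0165. SEMA4A had 10.9, 11.6 and 10.2 CPM in the siIQGAP3 libraries, against 3.24, 2.34 and 7.13 in the siControl libraries (log2 fold change 1.36 ± 0.36 SE, adjusted p = 0.0125). In both genes that rose, siControl library 3 was the highest of its group and still below siIQGAP3. SEMA5B did not pass although its estimate was the highest of the members (log2 fold change 2.66 ± 0.99 SE, adjusted p = 0.0568), with 44.1, 44.7 and 45 CPM in the siIQGAP3 libraries, against 2.32, 1.22 and 17.6 in the siControl libraries.

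SLIT3 was the one SLIT that passed. It had 16.1, 14.1 and 14.5 CPM in the siIQGAP3 libraries, against 135, 162 and 23.9 in the siControl libraries, log2 fold change -2.84 ± 0.54 SE, adjusted p = 0.00259. SLIT2 did not pass (log2 fold change -1.78 ± 0.71 SE, adjusted p = 0.0736), with 21.5, 18.4 and 20.4 CPM in the siIQGAP3 libraries, against 97.4, 105 and 4.42 in the siControl libraries, the third siControl library being the lowest of the 6. The RefSeq window of SLIT3 (chr5:169301090-169301389, minus strand, GRCh38.p14, 5′ to 3′, CG pairs in capitals) is shown as that of the SLIT ligand that fell.
SLIT3: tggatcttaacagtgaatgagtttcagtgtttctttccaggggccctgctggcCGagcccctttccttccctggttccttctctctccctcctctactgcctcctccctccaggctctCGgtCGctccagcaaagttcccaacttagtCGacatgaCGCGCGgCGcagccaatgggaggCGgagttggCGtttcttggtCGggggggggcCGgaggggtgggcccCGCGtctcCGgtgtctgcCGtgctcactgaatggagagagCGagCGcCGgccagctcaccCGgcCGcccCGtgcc
It holds 22 CG pairs.

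Netrins split too. NTN4, a netrin that binds laminin in basement membranes, rose, with 11.8, 9.44 and 9.58 CPM in the siIQGAP3 libraries, against 1.81, 1.52 and 3.54 in the siControl libraries, log2 fold change 2.16 ± 0.37 SE, adjusted p = 0.00147. NTN3 had 0.438, 0.548 and 0.716 CPM in the siIQGAP3 libraries, against 7.39, 8.25 and 0.939 in the siControl libraries (log2 fold change -3.28 ± 0.64 SE, adjusted p = 0.00287) and was lower. Every siIQGAP3 library lay above the siControl libraries for NTN4 and below them for NTN3. NTN5, with 3, 3 and 2 counts in the siIQGAP3 libraries and at most 30 in any library, was called lower (log2 fold change -2.10 ± 0.65 SE, adjusted p = 0.0249). This call was lost without siControl library 3, where the log2 fold change was -1.16, and also without siIQGAP3 library 1, 2 or 3. NTN1, the classical netrin, had 19.5, 17.8 and 17.8 CPM in the siIQGAP3 libraries, against 19.5, 18.9 and 43.4 in the siControl libraries (log2 fold change -0.57 ± 0.31 SE, adjusted p = 0.169).

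**Figure D2:**
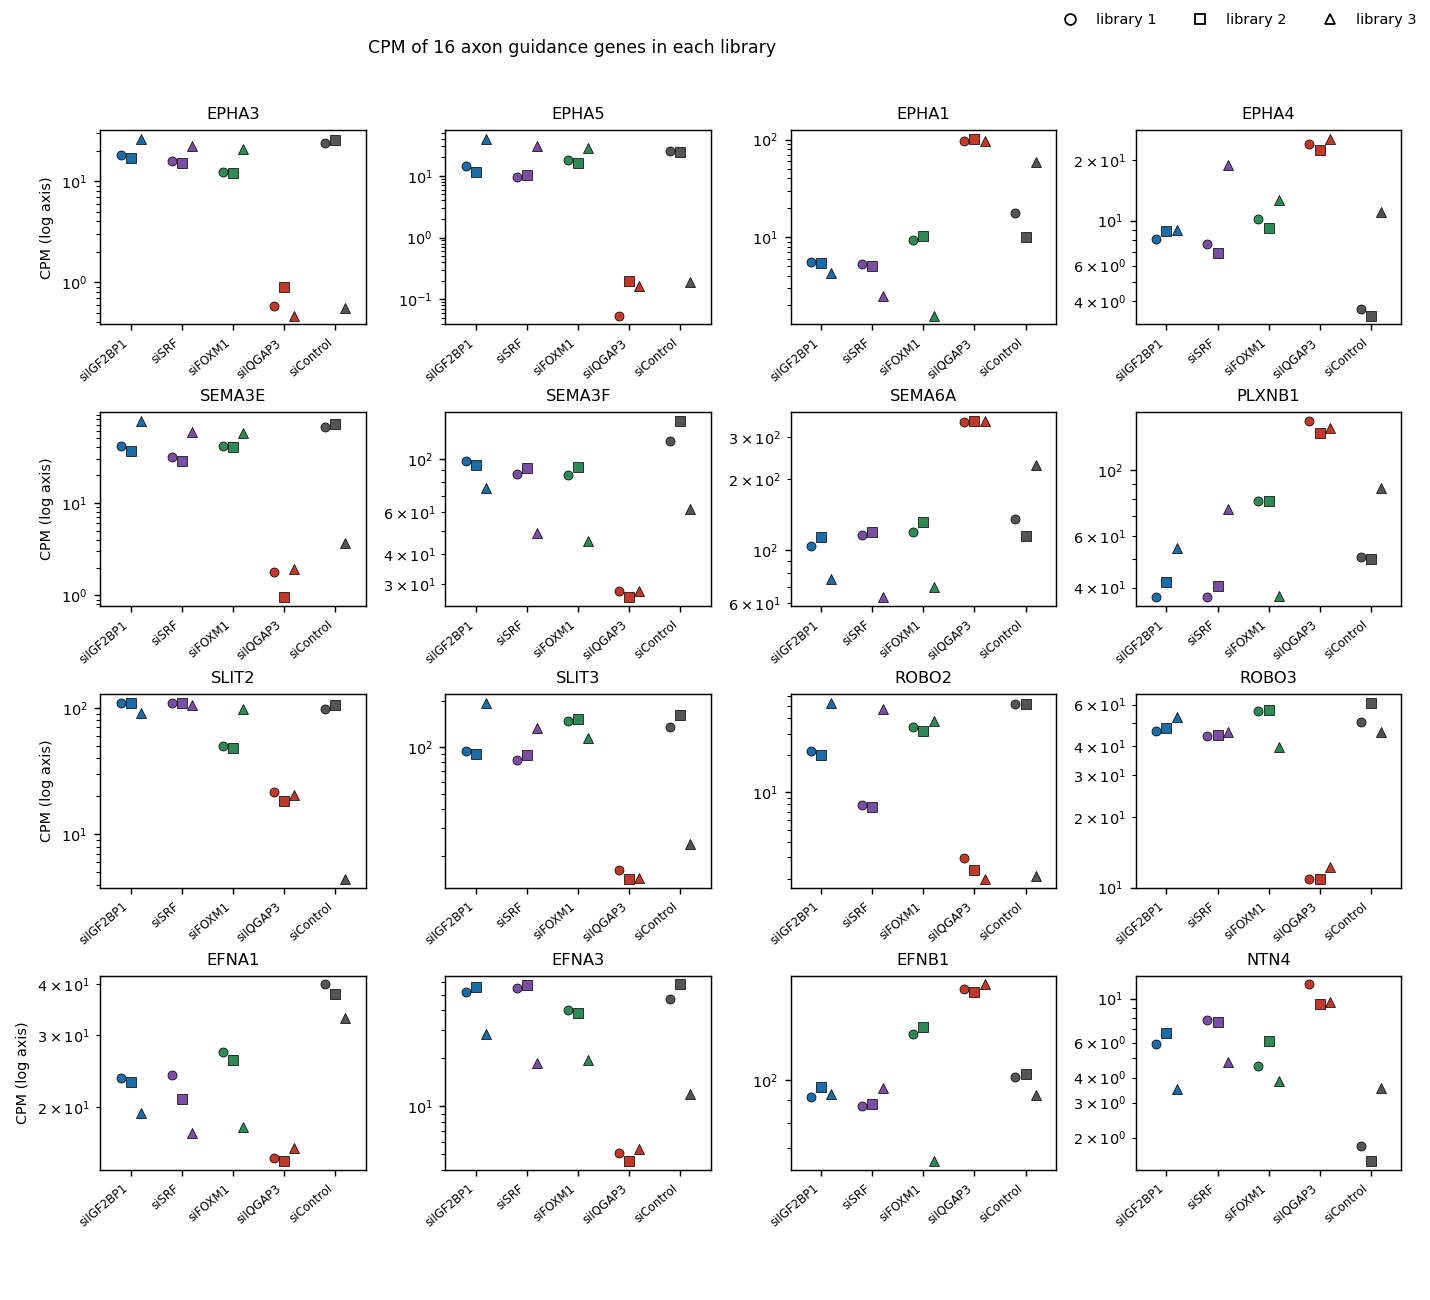
Each panel shows 1 gene, with CPM on a log axis and 1 point per library (circle, square and triangle for libraries 1, 2 and 3), the knockdowns at the left and siControl at the right. The triangle of siControl lies with siIQGAP3 for EPHA3, EPHA5 and ROBO2, and with the other siControl points for ROBO3, EFNA1 and EFNB1.

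The third siControl library touches most of these results. For 42 of the 62 members it was nearer to every siIQGAP3 library than to either other siControl library, which is 67.7% of them, against 58.6% of all genes tested. It was nearer to both siControl libraries for 13. Among the 32 called members the counts were 23 and 8, which is 71.9% and 25%, against 52.9% and 35.1% of all called genes. In 7 called members, EPHA3, EPHA5, EPHA7, PLXNB3, ROBO2, SEMA3D and SEMA5A, the groups overlap. The other 25 calls did not overlap, 7 of them higher and 18 lower. Among all genes 5025 of the 6096 called did not overlap. A further 10 members did not overlap and were not called, which makes 35 of 62, 13 higher and 22 lower, against 48.3% of all genes (25.2% higher, 23.1% lower).

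Without siControl library 3, 42 members were called, 14 higher and 28 lower, where 56.5% of all genes were (26.4% higher, 30.1% lower). Of the 32 calls, all but NTN5 remained. SEMA5B (log2 fold change 4.65), EPHA1 (2.83) and EPHA2 (1.97) were then called higher and SLIT2 (-2.34), EFNA5 (-1.30), SEMA6B (-0.92) and SEMA3A (-0.90) lower. ROBO4, EPHB1 and SEMA7A changed sign and were called higher, at 1.83, 1.0 and 0.97, where the fit with all libraries gave -1.15, -0.12 and -0.34. PLXNA1 was called at 0.55. Estimates of called members that moved by more than 1.5-fold were those of EPHA4 (2.76), PLXNC1 (2.28), SEMA4A (1.96) and NTN5 (-1.16). Leaving out each of the 6 libraries in turn gave 22 to 42 called members, the lowest without siControl library 1 (19.4% of all genes) and the highest without siControl library 3. The 19 calls held in every one of these fits were EPHA4 and NTN4, both higher, and 17 lower: EPHA3, EPHA5, EPHA6, EPHA8, EPHB2, EFNA1, EFNA3, EFNB3, SEMA3D, SEMA3E, SEMA3F, SEMA3G, SEMA4F, SEMA5A, ROBO3, SLIT3 and NTN3. EPHA7, EPHB3, PLXNB2, PLXNB3 and ROBO1 kept their calls in 1 of the 6 fits, the one without siControl library 3. NTN5 kept its call in 2, EFNB1 and PLXNB1 in 3, PLXNC1 and SEMA6A in 4, and EFNA2, ROBO2 and SEMA4A in 5.

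**Figure D3:**
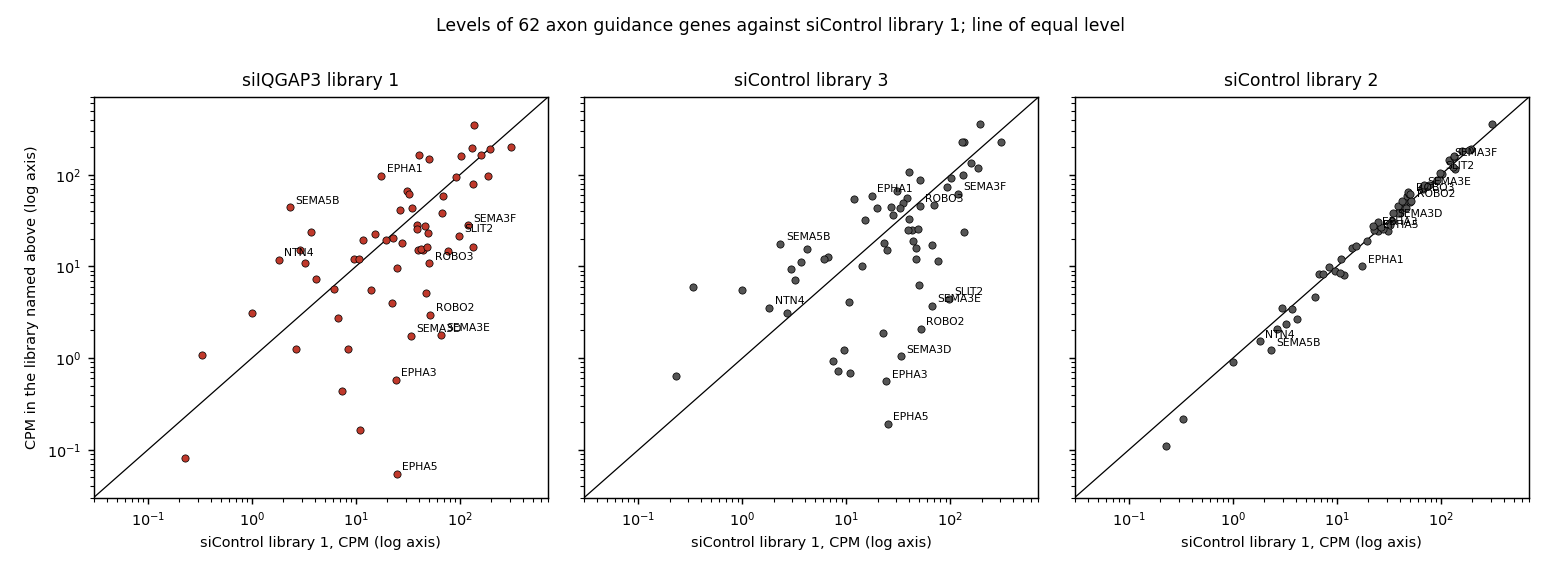
Each point is 1 of the 62 genes, with its CPM in siControl library 1 on the horizontal axis and its CPM in siIQGAP3 library 1, siControl library 3 and siControl library 2 on the vertical axis of the 3 panels, both log axes. The points of siControl library 2 follow the line of equal level, and EPHA3, EPHA5, SEMA3D, SEMA3E and ROBO2 lie far below it in the other panels.

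Calls among markers in the siIQGAP3 comparison stand beside the 32.5% of all genes called there. The fibroblast and endothelial sums in siIQGAP3 lay inside the siControl range only through siControl library 3. The endothelial sums were 36.2, 24.9 and 98.5 CPM in siControl libraries 1, 2 and 3. The 8 fibroblast and mesenchyme markers summed to 2811 to 2848 CPM in siIQGAP3, against 2019 to 8861 CPM in siControl, where 2019 was the third library, and 4 of 8 were called lower and none higher. COL1A1 was the most abundant of them, and DCN was at 0 in siControl library 3. Of 10 pluripotency markers 3 were called higher and 2 lower. Neural markers summed to 701 to 710.0 CPM in siIQGAP3 and 422 to 673 in siControl, with 2 higher and 1 lower of 12 tested, and endothelial markers to 81.2 to 86.4 CPM in siIQGAP3 and 24.9 to 98.5 in siControl, with 1 higher and 2 lower of 7 tested. Without siControl library 3, 7 pluripotency markers were called higher and 2 lower, and 2 fibroblast markers higher and 5 lower. Neural markers then had 2 higher and 3 lower and endothelial markers 2 higher and 2 lower, where 56.5% of all genes were called. The part of the markers in the results was not tested.

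Reads of some members may be shared with an overlapping gene in GENCODE 29, since the sources used here give no strand setting. The overlap is 1432 bases of 7007 for PLXNB3 with SRPK3 and 1170 of 5253 for SEMA4G with MRPL43, which had up to 4460 counts in a library, while SEMA4G had up to 570. EFNA3 and EFNA4 overlap a readthrough transcript on the same strand. EPHA1 overlaps ZYX on the opposite strand by 82 bases, and ZYX had up to 21154 counts in a library, while EPHA1 had 72 to 393 counts in the siIGF2BP1, siSRF and siFOXM1 libraries. EPHA5, SEMA3F and SEMA6A overlap antisense genes with at most 125, 82 and 51 counts. Values of these genes are uncertain to that extent.

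In siSRF 3 members were lower than in siControl and none higher. EPHB1, an Eph receptor of B-type ephrins, EPHB6, a receptor without kinase activity, and EFNA1 fell, and 1.57% of all genes were called in this comparison (1.2% lower). EPHB1 had 0.777, 1.26 and 1.66 CPM in the siSRF libraries, against 4.15, 2.63 and 15.4 in the siControl libraries, log2 fold change -2.58 ± 0.59 SE, adjusted p = 0.0485. EPHB6 had 10.9, 9.87 and 11.8 CPM in the siSRF libraries, against 22.8, 25 and 17.9 in the siControl libraries, log2 fold change -1.02 ± 0.23 SE, adjusted p = 0.0483. EFNA1 had 24, 20.9 and 17.2 CPM in the siSRF libraries, against 39.97, 37.8 and 33 in the siControl libraries, log2 fold change -0.84 ± 0.18 SE, adjusted p = 0.0426. In all 3 genes every siSRF library lay below every siControl library, though for EPHB1 the third siControl library was several times above the other siControl libraries. Groups did not overlap in 9 members, 2 higher and 7 lower, against 14.2% of all genes (6.95% higher, 7.2% lower), and an unadjusted p under 0.05 was reached by 11, against 14.5%. DESeq2 called 7 members, 1 higher and 6 lower, against 5.62% of all genes, and limma-trend 3, 1 higher and 2 lower, against 1.83%.

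These calls sat near the threshold. Over the 13 alternatives the adjusted p ran from 2.68e-07 to 0.359 for EFNA1, from 1.49e-05 to 0.521 for EPHB1 and from 1.72e-08 to 0.315 for EPHB6, with 6, 5 and 6 of 13 past the threshold and the sign kept in all. Members called were 0 without siSRF library 1, siSRF library 2 or siControl library 1, where 0.545%, 0.54% and 0.829% of all genes were called. Without siSRF library 3 all 3 calls were lost and 2 other members were called, 1 higher and 1 lower, against 2.42% of all genes. Without siControl library 2, EPHB1 alone of the 3 was kept, among 3 members called, against 2.34%. Without the filter on low counts the 3 calls were lost and 1 other member was called, higher, against 1.01%, and with only the siSRF and siControl libraries fitted 0 were called, against 0.00569%. Without siControl library 3 there were 8, where 6.71% of all genes were called, and the estimate of EPHB1 was -1.45. The 5 others were then NTN4 (log2 fold change 2.01) and EPHA4 (1.65), higher, and SEMA5A (-0.94), PLXNB3 (-0.91) and EFNA5 (-0.55), lower. Pluripotency markers moved with this comparison, with 3 of 10 lower and sums of 428 to 511 CPM in siSRF, against 1753 to 4435 CPM in siControl. Endothelial markers had 2 of 7 lower, with sums of 13.3 to 13.6 CPM in siSRF, against 24.9 to 98.5 CPM in siControl, and the part of both lists was not tested.

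The windows of these 3 genes are shown since SRF binds the CArG box, CC followed by 6 A or T bases and GG. They are RefSeq promoters on GRCh38.p14, written 5′ to 3′ with CG pairs in capitals, for EPHB1 at chr3:134795010-134795309, plus strand, EPHB6 at chr7:142862506-142862805, plus strand and EFNA1 at chr1:155127626-155127925, plus strand.
EPHB1: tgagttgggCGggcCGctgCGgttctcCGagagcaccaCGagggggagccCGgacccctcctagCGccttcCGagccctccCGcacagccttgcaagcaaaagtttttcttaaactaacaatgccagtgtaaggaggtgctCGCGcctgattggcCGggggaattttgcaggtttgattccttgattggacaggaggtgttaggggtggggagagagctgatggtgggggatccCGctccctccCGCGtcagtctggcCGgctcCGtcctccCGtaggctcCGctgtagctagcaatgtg
EPHB6: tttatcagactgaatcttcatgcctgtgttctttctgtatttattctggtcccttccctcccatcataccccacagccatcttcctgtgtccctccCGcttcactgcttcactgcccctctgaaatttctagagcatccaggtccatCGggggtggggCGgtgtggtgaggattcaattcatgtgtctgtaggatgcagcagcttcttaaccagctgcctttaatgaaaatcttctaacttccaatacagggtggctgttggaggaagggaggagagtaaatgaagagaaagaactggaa
EFNA1: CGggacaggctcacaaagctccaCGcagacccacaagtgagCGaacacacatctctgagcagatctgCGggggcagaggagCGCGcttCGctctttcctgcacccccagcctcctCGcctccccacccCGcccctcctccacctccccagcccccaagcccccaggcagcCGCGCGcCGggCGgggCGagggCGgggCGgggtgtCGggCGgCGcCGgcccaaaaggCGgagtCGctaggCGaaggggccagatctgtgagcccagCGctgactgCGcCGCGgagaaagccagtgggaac
The CG pairs number 19, 3 and 28. No CArG box was found on either strand in these windows, nor in any of the 87 windows of the 55 members that the RefSeq table holds, while 454 of all 35116 windows, 1.29%, hold one. This says only that those letters are not in windows of this length. Member windows had a median of 21 CG pairs, against 14 in all windows, and a median GC content of 65.7%, against 58.7%. The part of GC content in the shares of the motifs was not tested, and a gene can have more than 1 window. TAAACA, a core of forkhead factor sites, was found on either strand in 7 member windows, 8.05%, against 12.3% of all windows, and TTTGAA, the cell cycle homology region bound by the complex that recruits FOXM1, in 8, 9.20%, against 15.2%.

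**Figure D4:**
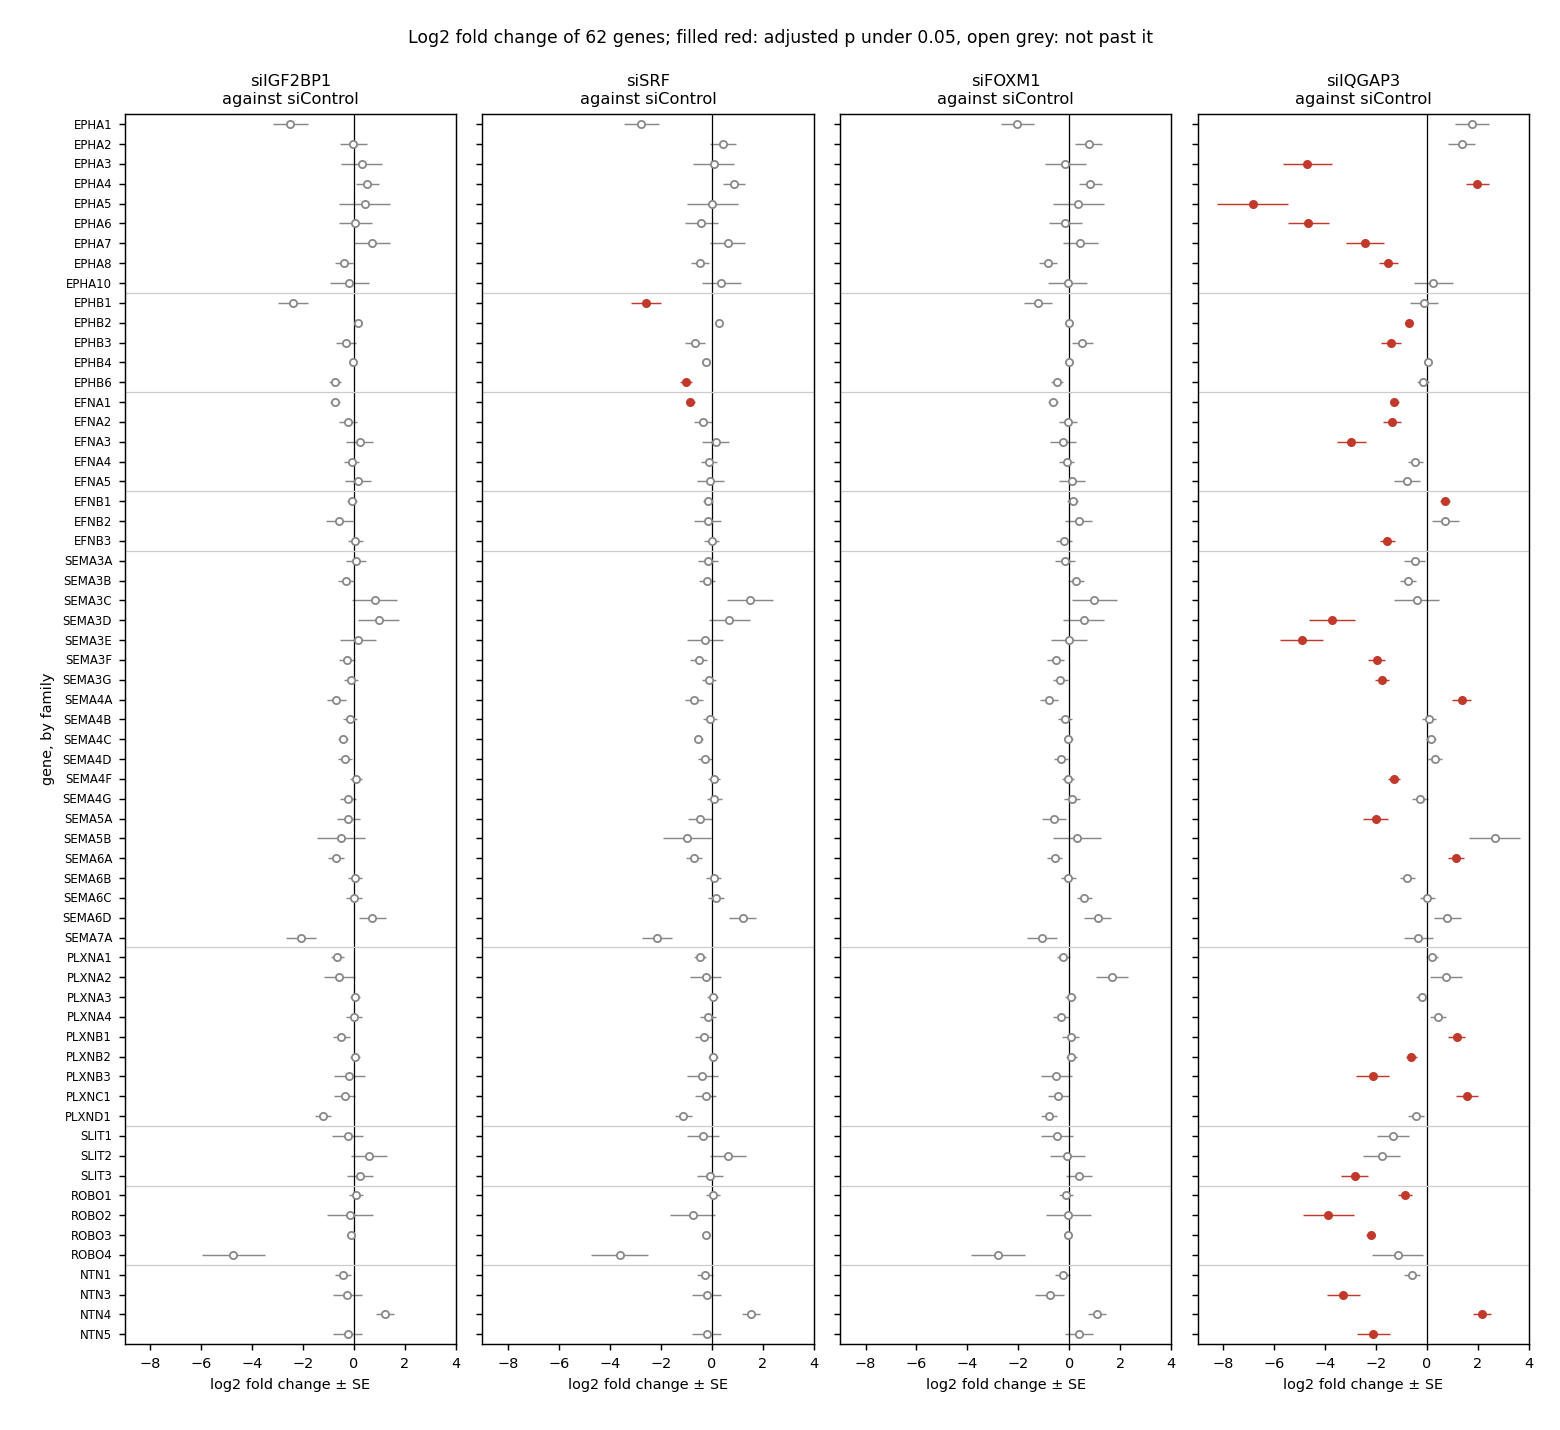
Points are log2 fold changes with SE bars of the 62 genes in the 4 comparisons with siControl, filled red where the adjusted p was under 0.05 and open grey elsewhere. The siIQGAP3 panel holds 32 filled points, the siSRF panel 3, and the siIGF2BP1 and siFOXM1 panels 0.

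In siIGF2BP1 no member passed the test against siControl. The edgeR test called 0 of 62, against 1.62% of all genes. At an unadjusted p under 0.05 there were 11, 1 higher and 10 lower, against 15.1% of all genes (5.01% higher, 10.1% lower), DESeq2 called 7, against 5.52%, and limma-trend 0, against 1.78%. Groups did not overlap in 11 members, SEMA6D higher and 10 lower, against 17.3% of all genes (7.74% higher, 9.57% lower). The median log2 fold change of the members was -0.16, and 0.01 over all genes.

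Among the Eph receptors of both types, the ephrins of both types and each other family, the member with the largest absolute log2 fold change was taken, and EPHB1 is given beside them. EPHA1 had 5.54, 5.41 and 4.29 CPM in the siIGF2BP1 libraries, against 17.5, 10.02 and 58.8 in the siControl libraries, log2 fold change -2.50 ± 0.68 SE, adjusted p = 0.101. ROBO4 had 0.0755, 0.0251 and 0.134 CPM in the siIGF2BP1 libraries, against 0.331, 0.217 and 6.0 in the siControl libraries, log2 fold change -4.73 ± 1.22 SE, adjusted p = 0.0789. Both were lower in every siIGF2BP1 library, with siControl library 3 as the highest value, and ROBO4 rests on 3, 1 and 6 counts in the siIGF2BP1 libraries. EPHB1 had 0.956, 1.03 and 2.21 CPM in the siIGF2BP1 libraries, against 4.15, 2.63 and 15.4 in the siControl libraries, log2 fold change -2.40 ± 0.58 SE, adjusted p = 0.0635, and EFNA1 had 23.5, 23.1 and 19.3 CPM in the siIGF2BP1 libraries, against 39.97, 37.8 and 33 in the siControl libraries, log2 fold change -0.75 ± 0.18 SE, adjusted p = 0.0649. Neither gene's groups overlap, and for EPHB1 siControl library 3 was several times above the other siControl libraries. SEMA7A, a semaphorin with a lipid anchor, had 5.96, 5.2 and 6.17 CPM in the siIGF2BP1 libraries, against 11.7, 7.98 and 53.7 in the siControl libraries, log2 fold change -2.08 ± 0.60 SE, adjusted p = 0.119. PLXND1 had 92.4, 93.3 and 133 CPM in the siIGF2BP1 libraries, against 194, 191 and 354 in the siControl libraries, log2 fold change -1.21 ± 0.33 SE, adjusted p = 0.0982. Again no siIGF2BP1 library reached a siControl library. NTN4 had 5.94, 6.69 and 3.49 CPM in the siIGF2BP1 libraries, against 1.81, 1.52 and 3.54 in the siControl libraries, log2 fold change 1.23 ± 0.36 SE, adjusted p = 0.126, and SLIT2 110.2, 109 and 91.7 CPM in the siIGF2BP1 libraries, against 97.4, 105 and 4.42 in the siControl libraries, log2 fold change 0.59 ± 0.69 SE, adjusted p = 0.731. For NTN4 the third siIGF2BP1 library was just below the third siControl library, so the groups overlap, as they do for SLIT2.

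Without siControl library 2, 4 members were called lower in siIGF2BP1, and without siControl library 3, 3 members were called, where 3.05% and 2.74% of all genes were. The 3 were EFNA1 (log2 fold change -0.82) and SEMA5A (-0.70) lower and NTN4 (1.69) higher. Leaving out this library also moved the estimates of ROBO4 to -1.75, EPHA1 to -1.44 and SEMA7A to -0.77, none of them called. Pluripotency markers were called lower in 4 of 10 genes, with sums of 403 to 511 CPM in siIGF2BP1, against 1753 to 4435 in siControl. Without siControl library 3 they were called lower in 2 of 10. Endothelial markers were called lower in 2 of 7 genes tested, with sums of 11.6 to 14.3 CPM in siIGF2BP1, against 24.9 to 98.5 in siControl. The part of these markers in the members' values was not tested.

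In siFOXM1 edgeR likewise called 0 members, against 1.12% of all genes. An unadjusted p under 0.05 was reached by 9, against 12.5%, DESeq2 called 2, against 4.39%, and limma-trend 0, against 1.4%. Only 4 members did not overlap, NTN4 higher and EFNA1, EPHA8 and PLXND1 lower, against 15.7% of all genes (7.55% higher, 8.15% lower). PLXNA2, a plexin that binds SEMA6A, had the largest positive estimate, log2 fold change 1.69 ± 0.63 SE, adjusted p = 0.276, with 153, 154 and 30.5 CPM in the siFOXM1 libraries, against 32.7, 28.5 and 43.6 in the siControl libraries. The third siFOXM1 library lay among the siControl libraries. Without siControl library 3, 7 members were called, against 8.16% of all genes, with EPHA4 (log2 fold change 1.60), NTN4 (1.54) and SEMA6C (1.02) higher and NTN3 (-1.27), SEMA5A (-1.09), PLXNB3 (-1.05) and EFNA1 (-0.72) lower. Pluripotency markers had 2 of 10 lower, with sums of 281 to 1284 CPM in siFOXM1, against 1753 to 4435 in siControl, and endothelial markers 1 of 7 lower, with sums of 7.85 to 70.1 CPM in siFOXM1, against 24.9 to 98.5 in siControl. Their part was not tested. PLXNA2 and SEMA6C were named after their values were seen.

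All 4 comparisons share the siControl libraries, so their values are not independent. EFNA1 gave log2 fold changes of -0.75 in siIGF2BP1, -0.84 in siSRF, -0.64 in siFOXM1 and -1.28 in siIQGAP3, and NTN4 gave 1.23, 1.55, 1.08 and 2.16 in the same order. EPHA1 gave -2.50, -2.76, -2.03 and 1.77.

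Direct comparisons between knockdowns do not use the levels in siControl. Their scaling, filter and spread still come from the fit of all 15 libraries, siControl included. Between siIGF2BP1 and siSRF edgeR called 0 members, against 0.00533% of all genes, and DESeq2 (all genes 0.00816%) and limma-trend (0.00533%) called 0 too. The unadjusted threshold of 0.05 was passed by 0 (all genes 0.283%). Groups did not overlap in 5 members, against 6.79%. EFNA1 was at 23.5, 23.1 and 19.3 CPM in siIGF2BP1 and 24, 20.9 and 17.2 in siSRF, a difference of 0.09 ± 0.18 log2 units with a 95% interval of -0.31 to 0.48. For EPHB1 the interval was -1.04 to 1.40 and for EPHB6 -0.24 to 0.75. Between siIGF2BP1 and siFOXM1 edgeR also called 0, against 0.0107% of all genes, as did DESeq2 (0.367%) and limma-trend (0.016%), and 2 passed the unadjusted threshold (4.84%). Without siFOXM1 library 3, 3 members were called, against 1.08% of all genes. PLXNA2, named after its values were seen, had log2 fold change -2.26 ± 0.64 SE, adjusted p = 0.778, with 17.3, 17.8 and 35.3 CPM in the siIGF2BP1 libraries, against 153, 154 and 30.5 in the siFOXM1 libraries, where the third siIGF2BP1 library lay above the third siFOXM1 library and the groups overlap.

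Between siIGF2BP1 and siIQGAP3, 43 members were called, 27 higher and 16 lower in siIGF2BP1, where 49.9% of all genes were, 28% higher and 22% lower. Leaving out 1 library gave 27 to 38 calls, the 27 without siIGF2BP1 library 1 (36.7% of all genes). With only these 2 groups fitted there were 48 (68.6%). Groups did not overlap in 52 members, against 74.9% of all genes. Higher in siIGF2BP1 were EPHA5 (log2 fold change 7.26 ± 1.41 SE, adjusted p = 0.00171), SEMA3E (log2 fold change 5.05 ± 0.85 SE, adjusted p = 0.000918), EPHA3 (log2 fold change 4.99 ± 0.96 SE, adjusted p = 0.0017), and, with the log2 fold change alone, EPHA6 (4.71), SEMA3D (4.69), ROBO2 (3.71), SLIT3 (3.08) and SLIT2 (2.37). In these genes no siIGF2BP1 library overlapped siIQGAP3. Without siIGF2BP1 library 3 the estimates of EPHA5 (6.52), SEMA3D (4.03), ROBO2 (3.11) and ROBO4 (-4.21) moved by more than 1.5-fold and stayed called. Lower in siIGF2BP1 were EPHA1 (log2 fold change -4.27 ± 0.73 SE, adjusted p = 0.00098), ROBO4 (log2 fold change -3.58 ± 1.2 SE, adjusted p = 0.0244), SEMA5B (log2 fold change -3.19 ± 1.02 SE, adjusted p = 0.0211), and, with the log2 fold change alone, EPHB1 (-2.27), SEMA4A (-2.05), PLXNC1 (-1.95), SEMA6A (-1.84), SEMA7A (-1.74) and PLXNB1 (-1.66). EPHA1 was at 5.54, 5.41 and 4.29 CPM in siIGF2BP1 and 96.6, 102 and 95.8 CPM in siIQGAP3, and SLIT2 at 110.2, 109 and 91.7 CPM in siIGF2BP1 and 21.5, 18.4 and 20.4 CPM in siIQGAP3. By family, 5 EPHA genes were higher and 3 lower, 7 semaphorins higher and 5 lower, 3 ROBO genes higher and 1 lower, and 2 of 3 SLIT genes higher. Fibroblast markers moved with this comparison, 5 of 8 higher and 2 lower in siIGF2BP1, and 9 of 10 pluripotency markers were lower. Endothelial markers had 1 higher and 4 lower of 7 tested and neural markers 4 higher and 3 lower of 12. Their part was not tested.

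Several members differed widely between the libraries of 1 group. The third library lay outside the other libraries of its group by more than 1.5-fold for 19 members in siIGF2BP1 (30.6%, against 30.1% of all genes), 38 in siSRF (61.3%, against 43.7%), 34 in siFOXM1 (54.8%, against 29.8%), 0 in siIQGAP3 (against 3.94%) and 47 in siControl (75.8%, against 56.2%). SEMA3C, a class 3 semaphorin, had 29.4, 25.1 and 131 CPM in siIGF2BP1, 26.5, 23.6 and 249 in siSRF, 44, 40.5 and 123 in siFOXM1, 27.5, 25.6 and 26.9 in siIQGAP3 and 46.3, 43.6 and 16 in siControl. The third library was thus the highest in siIGF2BP1, siSRF and siFOXM1 and the lowest in siControl. ROBO2 had 7.85, 7.58 and 47.8 CPM in siSRF, and EFNB2, a B-type ephrin of arteries, 18.7, 18.3 and 71.6. EPHB3 had 68.5, 67.5 and 25.6 CPM in siFOXM1. SEMA3C, EFNB2 and EPHB3 were named here after their values were seen.

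With the third library of every group left out, far more genes passed. Libraries 1 and 2 differ little from each other, and that spread may be technical. Members called then numbered 45 in siIGF2BP1 (48.9% of all genes), 49 in siSRF (54.2%), 44 in siFOXM1 (52.9%) and 55 in siIQGAP3 (80.6%) against siControl. In siIGF2BP1 against siSRF they numbered 2 (1.39%) and against siFOXM1 42 (53.4%). In each of these comparisons the members' share was above that of all genes. In siIQGAP3 against siControl the alternatives that keep every library gave 25 calls (the compared groups alone, 20.7% of all genes) to 35 (DESeq2, 35.6%), and in siIGF2BP1 scaling by library size only gave 1, lower (1.32%).

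Of 81 other genes of the pathway (co-receptors, adaptors and effectors), siIQGAP3 had 14 called higher and 11 lower, against the 32.5% of all genes given above. CNTN1, a contactin adhesion protein, had 2.38, 2.6 and 2.5 CPM in the siIQGAP3 libraries, against 134, 133 and 3.05 in the siControl libraries (log2 fold change -5.17 ± 1.17 SE, adjusted p = 0.00611), and UNC5C, a netrin receptor, 2.03, 2.22 and 1.29 CPM in the siIQGAP3 libraries, against 67.2, 72.9 and 0.128 in the siControl libraries (log2 fold change -4.66 ± 1.2 SE, adjusted p = 0.0112). The third siControl library was near siIQGAP3 in CNTN1. In UNC5C it lay below all siIQGAP3 libraries, so the groups overlap. VAV3, an exchange factor downstream of Eph receptors, was lower (log2 fold change -2.81 ± 0.58 SE, adjusted p = 0.00375). CNTN2 (log2 fold change 4.09 ± 1.06 SE, adjusted p = 0.0117), LRRC4 (log2 fold change 4.07 ± 0.76 SE, adjusted p = 0.00221), and DPYSL4 (log2 fold change 2.41 ± 0.53 SE, adjusted p = 0.00516) were higher. CNTN2 had 21.9, 18.3 and 20.5 CPM in the siIQGAP3 libraries, against 0.357, 0.787 and 2.39 in the siControl libraries, with all siIQGAP3 libraries above all siControl libraries. Without siControl library 3 the counts were 32 higher and 14 lower, where 56.5% of all genes were called (26.4% higher, 30.1% lower). In siIGF2BP1 0 of the 81 were called by edgeR (1.62% of all genes), and 16 passed an unadjusted threshold of 0.05 (15.1%). DESeq2 called 6 (5.52%) and limma-trend 0 (1.78%). In siFOXM1 the counts in the same order were 0 (1.12%), 17 (12.5%), 7 (4.39%) and 0 (1.4%). In siSRF 1 was called, against 1.57% of all genes. It was DSCAM, a netrin receptor, lower (log2 fold change -2.77 ± 0.58 SE, adjusted p = 0.0308). DCC, the main netrin 1 receptor, had at most 0.853 CPM in any library, while NEO1, its relative, had 164, 155 and 159 CPM in the siIQGAP3 libraries, against 85.9, 92.1 and 121 in the siControl libraries (log2 fold change 0.68 ± 0.13 SE, adjusted p = 0.00222).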

How the data were processed

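The authors deposited a table of raw counts per gene and a normalised table. Per the submitters' processing notes, STAR, SAMtools and featureCounts were used with GRCh37; versions, annotation and strand setting are not given in the sources used here, and the labels' protocols give paired 100-base reads of total RNA. The deposited normalised signal equals each count times 1 factor per library (relative tolerance 1e-06) in 20407 genes, except for 9 genes that include the 4 siRNA targets; it was used only for a limma-trend alternative, on log2(value + 1).

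Counts of 15 libraries (35275570 to 44996064 in total, so that counting error is small except in genes with few counts) were fitted in 1 model with edgeR 4.0.16 in R 4.3.3, using TMM scaling, its expression filter (18760 genes kept), the quasi-likelihood F test with 10 residual degrees of freedom and Benjamini-Hochberg adjustment across those genes. An adjusted p under 0.05 was called. CPM values are TMM-scaled. The scripts were tested on simulated data. Alternatives were RLE scaling, library size only, no filter, the compared groups alone, leaving out each library, leaving out the third column of each group, DESeq2 1.42.0 and limma 3.58.1.

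All members and lists were chosen with earlier results of these data known. Members were named where called in any of 7 comparisons, up to 25 a comparison by absolute log2 fold change, and as the member with the largest absolute change in siIGF2BP1 against siControl among the Eph receptors (A and B types together), the ephrins (both types together) and each other family. Other pathway genes were named where called in siIGF2BP1 or siIQGAP3 against siControl, up to 6. DSCAM, DCC, NEO1 and members given for their level were named after their values were seen. Promoters and gene lengths come from later builds than the counts.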

Additional observations from a re-analysis of the deposited data

How the results depend on the processing

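No paired analysis was possible because the columns carry no replicate number. No alternative reversed a call. With the third column of every group left out, 45 members were called in siIGF2BP1 against siControl (48.9% of all genes). They numbered 49 in siSRF (54.2%), 44 in siFOXM1 (52.9%) and 55 in siIQGAP3 (80.6%) against siControl. In siIGF2BP1 they numbered 2 against siSRF (1.39%) and 42 against siFOXM1 (53.4%). These fits rest on libraries 1 and 2, which differ little, so the spread may be technical. DESeq2 called 7 members in siIGF2BP1 (5.52% of all genes), 7 in siSRF (5.62%) and 2 in siFOXM1 (4.39%). Scaling by library size only gave 1 in siIGF2BP1 (1.32% of all genes). In siSRF, no filter gave 1 (1.01% of all genes), a higher one that is none of the 3 reported, and the 2 groups alone 0 (0.00569%). Leaving out 1 library against siControl gave 0 to 4 in siIGF2BP1 (0.351% to 3.05% of all genes) and 0 to 8 in siSRF (0.54% to 6.71%). It gave 0 to 7 in siFOXM1 (0.357% to 8.16%) and 22 to 42 in siIQGAP3 (18.5% to 56.5%). In siIGF2BP1 it gave 0 to 0 against siSRF (0.00524% to 0.00525%) and 0 to 3 against siFOXM1 (0.0105% to 1.08%). Against siIQGAP3 it gave 27 to 38 (36.7% to 46.7%). The cause of these differences was not tested. In siIQGAP3 against siControl the other alternatives gave 25 to 35 members, with 20.7% of all genes called at 25 and 35.6% at 35. Scaling moved the median log2 fold change of all genes by less than 0.1. Depth limits members with few counts, such as NTN5, which reached at most 30 counts in a library.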
